A study of Mus musculus with 16 samples.

Results

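The cytosolic ribosomal protein genes code for the proteins of the large and small subunits of the ribosome that translates nuclear mRNA. They were taken as the gene symbols that start with Rpl or Rps and a number, with at most 1 closing letter a, x or l, together with Rplp0, Rplp1, Rplp2 and Rpsa. The rule found 81 of the 24341 symbols listed, 49 of the large subunit and 32 of the small subunit. RNA was measured in 16 libraries of sorted muscle cells from C57BL/6 mice of 2 to 3 months, in 6 groups: 3 each of p53WT, p53KO, p53WT_3dai and p53KO_3dai, and 2 each of p53WT_G2 and p53KO_G2. Cells were kept for alpha-7 integrin and CD34, the sort of muscle stem cells, and those with CD45, CD31, Sca-1 or CD11b were removed. The 3dai cells came from the tibialis anterior and the cells with no suffix and G2 cells from hind limb muscles, so suffix and muscle cannot be told apart for 3dai. The labels spell out neither suffix, give no Dmd genotype although the series title names a Duchenne model, and do not say how or in which cells p53 was removed. They also leave unsaid whether libraries come from separate animals, and the spread between samples that the p-values use may be technical.

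Each ribosome holds 1 copy of nearly every one of these proteins, built onto ribosomal RNA in the nucleolus. In mammals their mRNAs begin with a C followed by a run of pyrimidines, the terminal oligopyrimidine or TOP tract, through which mTORC1 signalling and the protein Larp1 set how well they are translated. Quiescent muscle stem cells make little protein, and entry into the cell cycle goes with ribosome production. Ribosomal proteins also meet the p53 pathway, since Rpl5 and Rpl11 in a particle with 5S RNA can bind Mdm2, the ligase that degrades p53, and Rps27l is a known p53 target gene.

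The start regions of these genes are shown because the TOP tract lies there and because the genes moved together between groups. RefSeq promoter windows (GRCm38.p6, the mm10 assembly) were matched by symbol for 60 of the 81 genes. Each line below runs 5′ to 3′ on the coding strand from 30 bases before the start to 20 bases from it on, and capitals mark the longest run of C and T between 10 bases before and 20 bases after the start. The first 5 genes had the largest called rises in p53WT_3dai among genes with a window, Rpl35, Rpl7a and Rpl27a hold long runs, and Rpl35a and Rpl13 were among those that moved least.
Rps27l (chr9:66946056-66946105, plus strand): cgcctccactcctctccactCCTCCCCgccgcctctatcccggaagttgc
Rpl41 (chr10:128549149-128549198, minus strand): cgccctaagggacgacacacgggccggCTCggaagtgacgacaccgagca
Rps2 (chr17:24720033-24720082, plus strand): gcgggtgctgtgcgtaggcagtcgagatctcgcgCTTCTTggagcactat
Rpl27 (chr11:101442215-101442264, plus strand): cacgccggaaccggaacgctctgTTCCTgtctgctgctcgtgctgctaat
Rpsa (chr9:120127736-120127785, plus strand): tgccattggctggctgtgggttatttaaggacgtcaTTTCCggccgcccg
Rpl35 (chr2:39005112-39005161, minus strand): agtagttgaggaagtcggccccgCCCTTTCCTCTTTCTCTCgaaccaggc
Rpl7a (chr2:26910777-26910826, plus strand): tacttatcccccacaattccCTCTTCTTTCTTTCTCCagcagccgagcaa
Rpl27a (chr7:109519165-109519214, plus strand): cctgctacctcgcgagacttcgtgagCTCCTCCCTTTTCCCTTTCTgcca
Rpl35a (chr16:33056423-33056472, plus strand): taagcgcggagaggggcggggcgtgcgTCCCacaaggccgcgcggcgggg
Rpl13 (chr8:123102320-123102369, plus strand): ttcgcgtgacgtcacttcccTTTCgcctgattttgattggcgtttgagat

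A run of at least 8 pyrimidines stood at the start in 20 of 60 genes (33.3%), against 11.2% of 32851 RefSeq windows. The letters CTTTCC, on either strand of the window from 250 bases before to 50 bases from the start on, were in 28 of 60 (46.7%) against 26.6% of windows, and such a match can overlap the run. CCGGAAGT, the core of Ets family sites, was in 12 of 60 (20%) against 3.89%. Runs were counted only inside the stretch searched, and those of Rps27l, Rpl7a and Rpl13 go on past its edge. Within it the 5 genes shown first have runs of 7, 3, 6, 5 and 5 bases, while Rpl35, Rpl7a and Rpl27a have runs of 18, 17 and 20. The annotated start may lie some bases from the start used in these cells, so a short run here does not describe the mRNA end. As a description with no test, the 20 genes with a run of at least 8 had a median difference of 0.63 between p53WT_3dai and p53WT and the 39 tested genes without one 0.44, and in p53KO these medians were 0.54 and 0.35.

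By FPKM, a level scaled for transcript length and library size, these genes were among the highest in the cells. Of the 68 genes with a mean over 1000 FPKM in all, 38 were ribosomal protein genes, and 70 of the 81 lay above 100 FPKM in every library. The highest was Rplp1, an acidic protein of the stalk that recruits elongation factors, with a mean over the groups of 4526 FPKM. It was followed by Rps14 at 2928, a small subunit protein near the decoding site, Rps21 at 2699.5, Rps12 at 2416 and Rplp2, the partner of Rplp1, at 2343.

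Of the 81 genes 9 had a mean under 100 FPKM: Rps15a, Rpl30, Rpl34, Rps27, Rps4l, Rpl26, Rpl39l, Rpl3l and Rpl10l. Rpl26, a large subunit protein that also binds Trp53 mRNA, was under 0.001 FPKM in 14 of 16 libraries and at 35.9 and 25.5 FPKM in p53WT_3dai replicate 2 and p53KO_3dai replicate 3. Rpl3l, Rpl39l, Rpl10l and Rps4l are paralogs known from striated muscle, testis and other restricted tissues, and their highest libraries were at 2.27, 8.12, 0.0779 and 15.5 FPKM. Rpl10l was the 1 gene that did not reach 1 FPKM in 2 libraries, so 80 genes were tested.

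Low values of core subunits stood beside high values of gene copies. Rps27 lay between 0.255 and 46.6 FPKM while Rps27rt, a copy of it by name, lay between 2183 and 4646. Rpl34 was under 0.001 FPKM in 3 libraries and at most at 58.8, while the copy Rpl34-ps1 lay between 925.5 and 2822. These copies were looked up after the values had been seen. Reads that fit a gene and a near-identical copy can be split between them by the authors' quantification, so the levels of Rps27, Rpl34, Rpl26 and Rpl30 are uncertain, and their differences in the 9 comparisons between groups have standard errors of 0.93 to 1.72 on the log2 scale.

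The library labels were checked on Trp53, the gene named by the knockout. Trp53 was between 39.9 and 53.9 FPKM in p53WT and 6.34 and 12.2 in p53KO, 134 to 161 against 34.9 to 45.7 in 3dai, and 59.9 to 71.0 against 16.7 to 19.8 in G2, with no overlap. The sort markers Itga7 (81.1 to 317 FPKM) and Cd34 (27.1 to 140.3) were present, and the blood markers together summed to 7.38 to 36.4 FPKM with no suffix, 0 to 2.02 in 3dai and 0 to 14.6 in G2. Of these Hba-a1 reached 31.0 FPKM and Lyz2 14.6, while Csf1r and S100a8 were at 0 throughout and Ptprc, Itgam, Hbb-bs and Adgre1 under 1 FPKM. The 9 muscle stem cell markers summed to 1885 to 2177 FPKM with no suffix, 717 to 774 in 3dai and 844 to 1049.9 in G2. Myod1 alone was at 390 to 1270 FPKM with no suffix, and the 9 markers moved in both directions (limma, adjusted p under 0.05). In 3dai against no suffix Itga7 rose and 6 fell in each genotype, Calcr and Chodl among them. In G2 against no suffix Itga7 and Cdh15 rose and 4 fell in p53WT, and Itga7 rose and 5 fell in p53KO. Sums of FPKM per library ran from 423303 to 616485, and sequencing depth is not known from the files.

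Together the ribosomal protein genes made up 11.0% to 20.1% of a library's summed FPKM. The share was 16.1, 14.9 and 11.0% in p53WT, 15.4, 14.2 and 16.0% in p53KO, 17.2, 16.7 and 20.1% in p53WT_3dai, 17.5, 16.9 and 16.9% in p53KO_3dai, 13.9 and 13.8% in p53WT_G2 and 15.5 and 13.9% in p53KO_G2. In each genotype all 3dai libraries lay above all libraries with no suffix, and the G2 shares lay inside or below the range with no suffix. With small RNA and mitochondrially encoded genes left out of the sum, the shares in p53KO_3dai were 18.2, 19.3 and 19.4%. Those in p53WT_3dai were then 17.9, 17.3 and 21.0%, and those in p53KO 16.0, 14.6 and 16.6%. In bulk RNA, fewer cells of a type and less RNA per cell cannot be told apart, so a share describes the mixture of cells sorted.

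**Figure D1:**
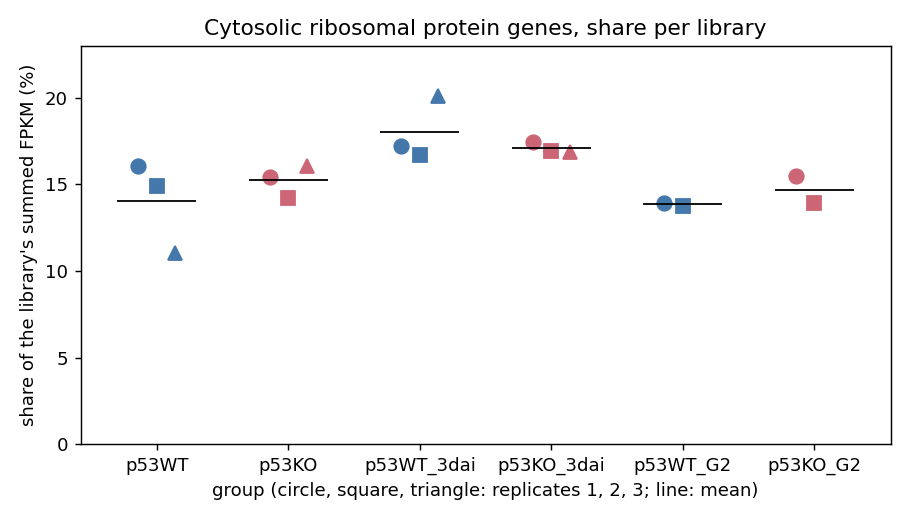
Share of the summed FPKM of each library that came from the 81 cytosolic ribosomal protein genes, in percent, by group; symbols are replicates, horizontal lines group means, blue p53WT and red p53KO. The 3dai libraries lie at 16.7% and above, p53WT replicate 3 is the lowest point at 11.0% and p53WT_3dai replicate 3 the highest at 20.1%.

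A pair of libraries stood apart from their groups in these genes. p53WT replicate 3 had a median of 498 FPKM over the genes against 859 and 829 in replicates 1 and 2, and p53WT_3dai replicate 3 had 1342 against 1093 and 945. Other short genes moved with them: relative to the other libraries of its group, p53WT replicate 3 had a median of -0.71 on the log2 scale over 79 ribosomal protein genes, -0.50 over 395 other genes with transcripts of up to 1000 bases and 0.12 over 4182 genes of over 3000 bases. In p53WT_3dai replicate 3 the same medians were 0.38, 0.43 and -0.15, and in p53KO_G2 replicate 1, against the other library of its group, 0.24, 0.34 and -0.07. The median transcript length was 914 bases over the 79 ribosomal protein genes with a length and 3141 over the 12081 tested genes with one. The part of transcript length in the differences between groups was not tested.

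The first comparison asked how muscle cells with the suffix 3dai differ from cells with no suffix. The ribosomal protein genes were higher in 3dai cells of both genotypes, most of all Rps27l, Rpl41 and Rps2. In p53WT_3dai 38 of 80 tested genes rose and 0 fell (limma, adjusted p under 0.05), where 31.8% of all tested genes rose and 20.9% fell. In p53KO_3dai 29 of 80 rose and 0 fell, where 30.4% of all tested genes rose and 22.7% fell. The median difference on the log2(FPKM + 1) scale was 0.53 in p53WT and 0.44 in p53KO, and over all tested genes it was 0.23 and 0.14. With only genes at a mean of 5 FPKM or more, the ribosomal protein genes were again at 0.53 and 0.44. All genes then lay closer to them, at 0.42 and 0.36. At an unadjusted p under 0.05, 45 and 36 of the 80 genes passed in either direction. The 3dai libraries all lay above those with no suffix for 40 of 80 genes in p53WT and 55 in p53KO, where 35.6% and 33.8% of all tested genes did so, and all below for 0 and 0, where 24.1% and 24.9% did.

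The p53WT result rests in part on the libraries that stood apart. Without p53WT replicate 3 the rises numbered 24 with a median of 0.28, where 28.7% of all genes rose, and without p53WT_3dai replicate 3 they numbered 23 with a median of 0.38, where 29.8% rose. With both left out, an alternative added after the data had been seen, 17 genes rose, where 26.5% of all genes did, and the median of 0.14 lay below the 0.23 of all genes tested. In p53KO, 19 rose without p53KO replicate 2, where 27.6% of all genes did, and 19 without p53KO_3dai replicate 3, where 27.6% did. In each of these cases the share of ribosomal protein genes called was close to or below that of all genes. Median-of-ratios scaling moved the median of all genes by -0.29 in p53WT_3dai and -0.23 in p53KO_3dai, and under it 12 and 10 ribosomal protein genes rose, with medians of 0.14 and 0.11 against -0.06 and -0.09 for all genes. Of all tested genes 23.5% then rose and 27.4% fell in p53WT_3dai, and 23.3% rose and 28.6% fell in p53KO_3dai. Quantile normalization gave medians of 0.32 and 0.26, against 0.05 and 0.05 for all genes.

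Rps27l, a paralog of Rps27 that p53 can induce, had the largest called rise. It stood at 213, 208 and 130 FPKM in p53WT and 687, 671 and 783 in p53WT_3dai, and at 238, 187 and 89.0 in p53KO and 648, 776 and 711 in p53KO_3dai. Every 3dai library lay far above every library with no suffix, in both genotypes. The mean rose from 183 ± 46.8 to 713 ± 60.6 FPKM (SD, n = 3 each) in p53WT, a log2 difference of 1.99 (SE 0.28, adjusted p = 2.85e-05), and in p53KO the log2 difference was 2.16 (SE 0.28, adjusted p = 1.23e-05). The rise was called under all 18 alternatives run in p53WT and all 17 in p53KO.

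Rpl41, a very short basic peptide of the large subunit, stood at 591, 705 and 307 FPKM in p53WT and 1623, 1493 and 2699.6 in p53WT_3dai. In p53KO it was at 618, 596 and 651 FPKM and in p53KO_3dai at 1711, 1860.3 and 1755. The groups did not overlap, and the log2 differences were 1.89 (SE 0.27, adjusted p = 2.79e-05) and 1.51 (SE 0.27, adjusted p = 0.000213). Rps2, which lines the mRNA entry channel of the small subunit, stood at 757, 827 and 504 FPKM in p53WT and 1703, 1583 and 2233 in p53WT_3dai, and at 758, 659 and 714 in p53KO and 1703, 1845 and 1947 in p53KO_3dai. Its log2 differences were 1.42 (SE 0.20, adjusted p = 2.69e-05) and 1.37 (SE 0.20, adjusted p = 3.76e-05), again with no overlap.

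**Figure D2:**
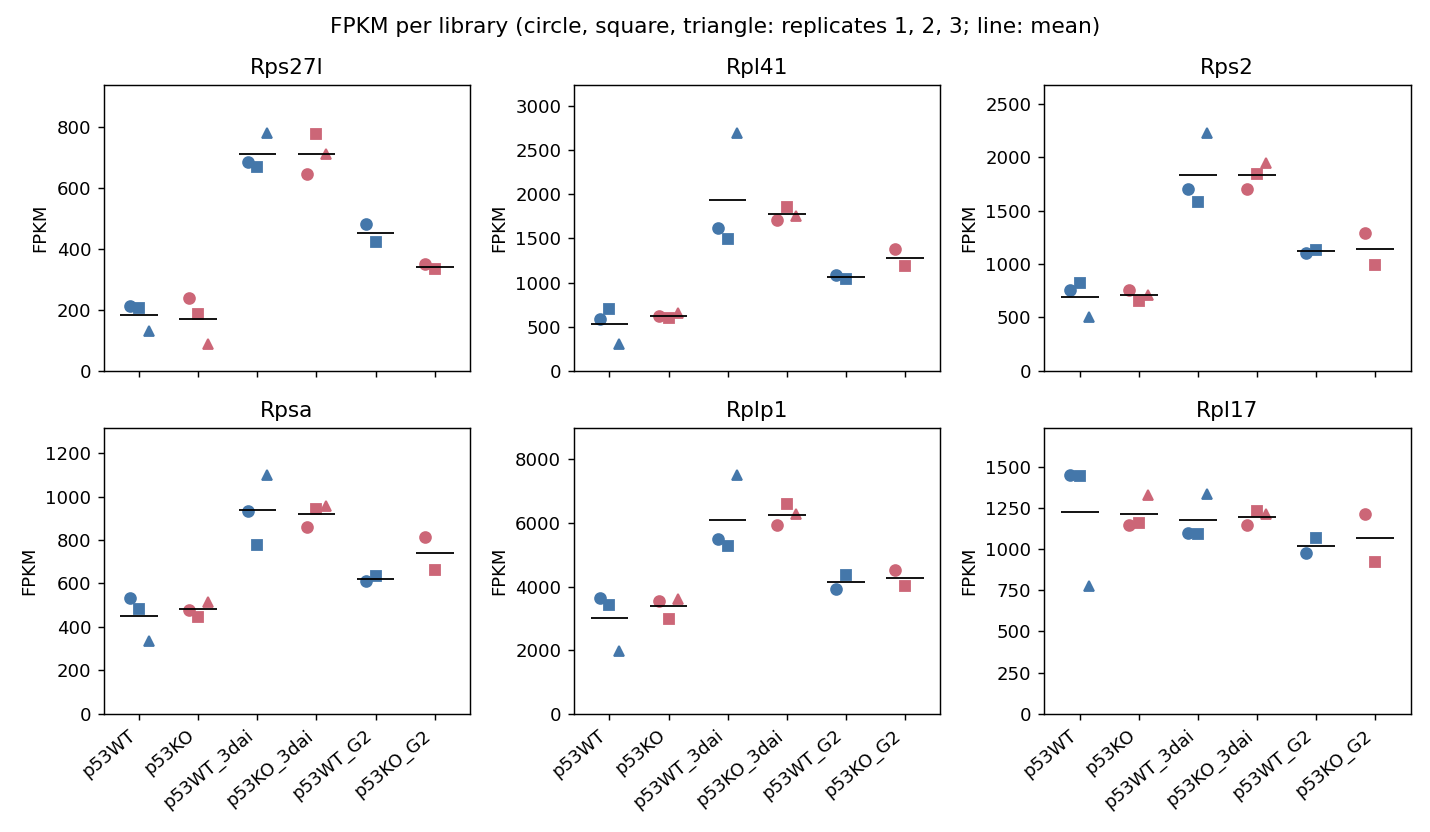
FPKM of 6 ribosomal protein genes in every library; symbols are replicates, horizontal lines group means, blue p53WT and red p53KO, and every axis starts at 0. Rps27l, Rpl41, Rps2, Rpsa and Rplp1 are higher in every 3dai library than in any library with no suffix, with G2 between the group means, while Rpl17 in 3dai overlaps Rpl17 with no suffix in both genotypes.

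Of the genes that rose in p53WT_3dai, 28 of 38 (73.7%) also rose in p53KO_3dai, which is 96.6% of the 29 called there. The same overlap over all genes was not computed, so these shares may not be particular to the set. Among the 28 genes were 2 of the 3 stalk proteins. Rplp1 rose by 1.05 and 0.90, from 3004 ± 911 to 6095 ± 1215 FPKM (SD, n = 3 each) in p53WT, and Rplp0, which anchors the stalk to ribosomal RNA, by 0.62 in each genotype. Rplp2 rose by 0.62 in p53WT (adjusted p = 0.0255), where the groups did not overlap at 1504 to 2242 against 2431 to 3948 FPKM, and its 0.44 in p53KO was not called (adjusted p = 0.1). Rplp1 also took a larger part of the summed FPKM of these genes, 4.20 to 4.82% with no suffix and 5.89 to 6.42% in 3dai. In G2 this part was 5.57 to 6.26%, which overlaps 3dai. Rpsa, a small subunit protein that doubles as the laminin receptor, rose by 1.07 and 0.94, with 531, 482 and 335 FPKM in p53WT and 933, 778 and 1097 in p53WT_3dai.

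Other genes that rose in both genotypes were Rps20 of the small subunit head (1.19 and 0.94), Rpl27 (1.13 and 1.09), Rps26 at the mRNA exit (1.03 and 0.87), Rpl3 near the peptidyl transferase centre (1.00 and 0.77), Rpl29 (0.99 and 0.89), Rpl35 at the exit tunnel (0.89 and 0.95) and Rpl36a (0.87 and 0.57). Of the Mdm2-binding pair, Rpl11 rose by 0.96 and 0.78, from 1102, 1009 and 591 FPKM to 1563, 1413 and 2190 in p53WT. Rpl5 was at 394, 352 and 270 FPKM in p53WT and 415, 395 and 497 in p53WT_3dai, a log2 difference of 0.37 (adjusted p = 0.0684), and at 0.29 in p53KO (adjusted p = 0.152). Rpl5 thus missed the limit in both genotypes while Rpl11 passed in both, and the difference between these genes was not tested.

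Rps27a, made as a fusion with ubiquitin, rose by 0.58 and Rps19, a gene of Diamond-Blackfan anaemia, by 0.53 in p53WT, and their 0.46 and 0.33 in p53KO were not called. Rps14 (0.39 and 0.13), Rps3 (0.40 and 0.21), Rpl10 (0.44 and 0.35), Rps6, the target of S6 kinase (0.28 and 0.30), Rpl7 (0.48 and 0.49), Rpl39 (0.63 and 0.58) and Rpl22 (0.48 and 0.20) were not called in either genotype. Rpl17 of the tunnel exit stood at 1447, 1445 and 778 FPKM in p53WT and 1098, 1090 and 1335 in p53WT_3dai, a log2 difference of -0.01, and Rpl35a was at 0.06 and -0.16 and Rps4x, the X-linked form of Rps4, at 0.17 and -0.14. Rpl26 (1.74 and 1.58), Rpl30 (1.31 and 2.46) and Rps27 (-0.26 and -0.54), whose levels are uncertain, were not called. By subunit, 24 of 48 large and 14 of 32 small subunit genes rose in p53WT_3dai, with medians of 0.62 and 0.48, and 20 and 9 in p53KO_3dai, with medians of 0.51 and 0.34.

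**Figure D3:**
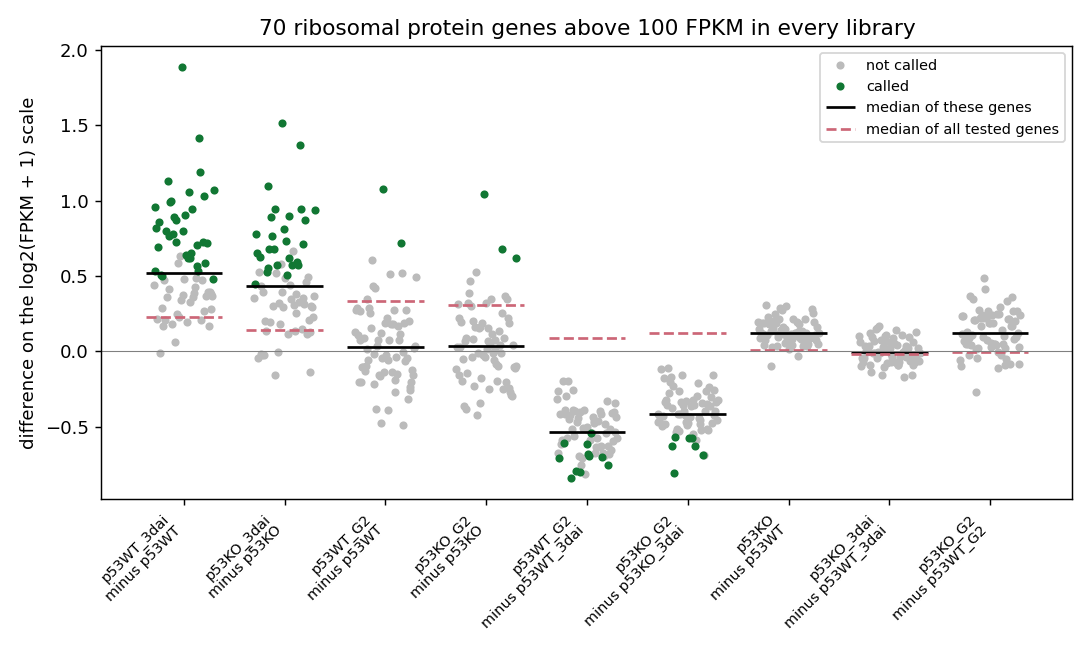
Difference of each of the 70 ribosomal protein genes above 100 FPKM in every library, on the log2(FPKM + 1) scale, in 9 comparisons; green points were called by limma, solid bars are their median and dashed bars the median of all tested genes. The points lie mostly above 0 in 3dai against no suffix, around 0 in G2 against no suffix, below 0 in G2 against 3dai, and none is called between genotypes.

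Over the 70 genes above 100 FPKM in every library the 3dai differences ran from -0.01 to 1.89 in p53WT and from -0.16 to 1.51 in p53KO. The differences of the same genes in the 2 genotypes, which share no library, had a Pearson correlation of 0.943 across genes, which share their libraries and are not independent. To see which genes moved relative to the rest, each library was centred on the median log2 value of the ribosomal protein genes. On this scale Rps27l (1.32 and 1.63), Rpl41 (1.22 and 0.99), Rps2 (0.75 and 0.84), Rpsa (0.40 and 0.41) and Rplp1 (0.38 and 0.37) stayed higher in 3dai in p53WT and in p53KO, with Rps20 and Rps26.

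Relatively lower in both genotypes were Rpl17 (-0.68, adjusted p = 0.000324, and -0.54, adjusted p = 0.00222), Rpl35a (-0.61 and -0.69), Rps4x (-0.50 and -0.66), Rpl21 (-0.50 and -0.55), Rpl13 (-0.46 and -0.57), Rps21 (-0.46 and -0.38) and Rpl9 (-0.47 and -0.41), among others. In all, 7 genes were relatively higher and 17 relatively lower in p53WT_3dai, where 14.8% and 32.5% of all genes were, and 9 and 14 in p53KO_3dai, where 16.1% and 31.5% were. Rpl3l had the largest relative fall in p53WT_3dai (-1.21, adjusted p = 0.031), from 1.23, 1.10 and 1.16 FPKM in p53WT to 0, 0 and 2.27, where the groups overlap. These relative falls are falls against the other ribosomal protein genes: on the FPKM scale 0 of the 80 genes were called lower. There 77 of 80 differences were positive in p53WT and 70 of 80 in p53KO, and the rest were negative without a call.

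**Figure D4:**
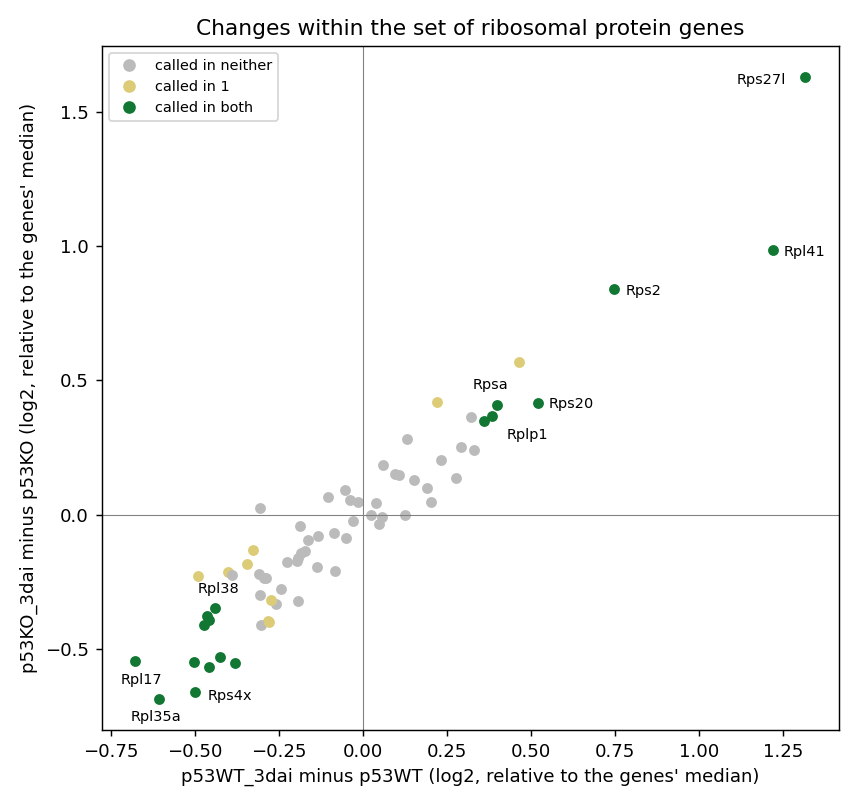
3dai difference in p53WT (x axis) and in p53KO (y axis) for Rps27l and the 70 ribosomal protein genes above 100 FPKM in every library, on the log2 scale and relative to the median of the ribosomal protein genes; green points were called by limma in both genotypes, yellow in 1. Rps27l, Rpl41 and Rps2 lie far to the upper right at 0.75 and above, and Rpl17, Rpl35a and Rps4x at the lower left at -0.50 and below.

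Other gene lists of protein synthesis were set beside these values. Of 76 mitochondrial ribosomal protein genes, which build the separate ribosome of mitochondria, 66 rose and 0 fell in p53WT_3dai and 68 rose and 0 fell in p53KO_3dai, with medians of 1.86 and 1.85. Of 17 elongation factors and other genes listed for TOP mRNAs (which start with a pyrimidine run), 9 rose and 1 fell in p53WT_3dai and 9 rose in p53KO_3dai, among them Npm1, a nucleolar chaperone (2.17 and 2.41), Eef1g, a subunit of the factor that recharges Eef1a (1.42 and 1.25), and Pabpc1, the poly(A)-binding protein (1.14 and 1.55). Of 51 genes of RNA polymerase I and ribosome assembly, 15 rose and 4 fell in p53WT_3dai, with a median of 0.26. In p53KO_3dai 21 rose and 2 fell, with a median of 0.60. Of all tested genes 31.8% and 30.4% rose and 20.9% and 22.7% fell. For this list p53KO replicate 3 summed to 2446 FPKM, against 3929 to 4907 in the other libraries with no suffix. It lies in the p53KO baseline, and 0 of the 51 genes were called in the 3dai interaction. Among further genes that the symbol rule misses, ribosomal proteins and genes related to them by name, the paralogs Rpl22l1 (0.84 and 0.81) and Rpl36al (1.02 and 1.13) rose in each genotype.

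Within the assembly list, Myc, a transcription factor that drives ribosome production, was at 351 to 414 FPKM in the libraries with no suffix and at 23.9 to 93.0 in 3dai. It fell by 2.44 on the log2 scale in p53WT_3dai and fell by 3.31 in p53KO_3dai. Bop1 (1.76 and 1.80) and Wdr12 (1.82 and 1.59), partners in large subunit processing, rose, and Sbds, a late assembly factor, fell (-1.66 and -1.38). Other genes with transcripts of up to 1000 bases had a median difference of 1.21 in p53WT_3dai and 1.16 in p53KO_3dai. For other genes of over 1000 to 3000 bases it was 0.70 and 0.62. These length classes lay above the ribosomal protein genes, and genes of over 3000 bases lay at 0.14 and 0.10.

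Markers of other states and cells moved with 3dai. All 8 markers of proliferating cells rose in both genotypes, their sum from 133 to 174 FPKM with no suffix to 1237 to 1339 in 3dai. All 6 pericyte and smooth muscle markers fell in both genotypes (sum 357 to 943 against 19.4 to 52.3 FPKM). Of 6 Schwann cell markers 5 fell and Ngfr rose in p53WT_3dai and 4 fell in p53KO_3dai (239.8 to 336 against 5.66 to 61.0 FPKM), and of 6 tendon markers 5 fell and Scx rose in each (219 to 438 against 36.0 to 85.8 FPKM). Endothelium markers summed to 24.9 to 39.2 FPKM with no suffix and 0.281 to 2.72 in 3dai, fibro-adipogenic markers to 12.3 to 20.2 and 1.11 to 10.8, and the blood markers were lower in sum, as given above. The part of these markers' cells in the ribosomal protein differences was not tested.

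**Figure D5:**
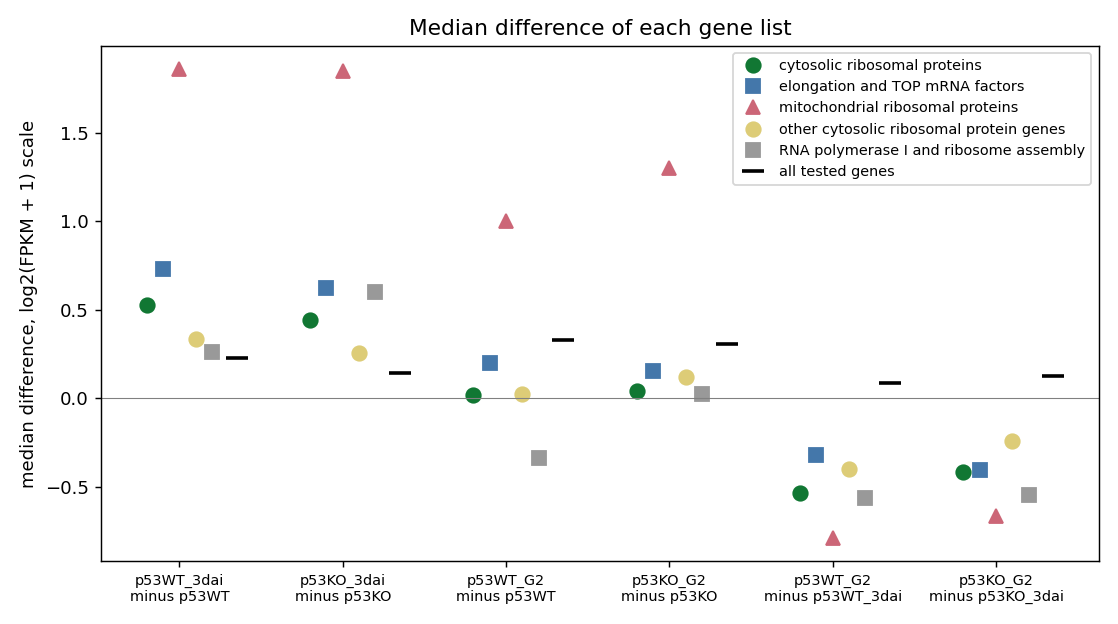
Median difference of 5 gene lists and of all tested genes, on the log2(FPKM + 1) scale, in the 6 comparisons between suffixes. Mitochondrial ribosomal proteins lie at 1.00 to 1.86 against no suffix, while cytosolic ribosomal proteins lie at 0.44 and 0.53 in 3dai and near 0 in G2.

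The second comparison set G2 cells against cells with no suffix. Here the ribosomal protein genes as a whole stayed near their levels with no suffix, with medians of 0.02 in p53WT and 0.04 in p53KO, while the median of all tested genes was 0.33 and 0.31. Rps27l, Rpl41 and Rps2 rose in both genotypes and Rpsa in p53KO. These were the 3 of 80 genes that rose in p53WT_G2, where 22.1% of all tested genes rose and 5.39% fell, and the 4 of 80 that rose in p53KO_G2, where 22.5% rose and 7.06% fell. None of the 80 fell by limma in either, and 7 and 6 passed an unadjusted p under 0.05 in either direction. The G2 libraries all lay above those with no suffix for 10 genes in p53WT and 18 in p53KO, where 41.0% and 37.4% of all genes did so, and all below for 1 and 6, where 15.1% and 14.7% did.

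Rps27l stood at 481 and 423 FPKM in p53WT_G2 and 350 and 334 in p53KO_G2, above every library with no suffix of its genotype. Its log2 differences were 1.33 (SE 0.31, adjusted p = 0.00551) and 1.10 (SE 0.31, adjusted p = 0.0153). Rpl41 stood at 1086 and 1043 FPKM in p53WT_G2 and 1381 and 1186 in p53KO_G2 (1.08, adjusted p = 0.0139, and 1.04, adjusted p = 0.0158), and Rps2 at 1103 and 1137, and 1295 and 996 (0.72, adjusted p = 0.0256, and 0.68, adjusted p = 0.0318). Rpsa stood at 816 and 663 FPKM in p53KO_G2 against 478, 446 and 516 in p53KO (0.62, adjusted p = 0.0357) and differed by 0.50 in p53WT (adjusted p = 0.0896). Without p53WT_G2 replicate 1 no gene was called in p53WT, nor without p53KO_G2 replicate 1 in p53KO, and without p53WT_G2 replicate 2 or p53KO replicate 2 the counts were 1 and 2. In these 4 fits 11.7 to 19.2% of all genes rose.

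The direction of the set in G2 depended on the scaling. Median-of-ratios scaling moved the median of all genes by -0.33 in p53WT_G2 and -0.34 in p53KO_G2, and then 1 and 0 ribosomal protein genes rose and 8 and 8 fell, with medians of -0.40 and -0.38. Of all tested genes 12.7% then rose and 11.8% fell in p53WT_G2, and 12.3% rose and 12.7% fell in p53KO_G2. Quantile normalization gave medians of 0.17 and 0.13 with 13 and 12 genes higher, where 13.4% and 13.9% of all genes were. Without p53WT replicate 3, 6 genes fell in p53WT_G2, where 4.22% of all genes did. Relative to the other ribosomal protein genes, Rps27l (1.19 and 0.91), Rpl41 (0.94 and 0.85) and Rps2 (0.58 and 0.49) were higher and Rps21 (-0.63 and -0.44) and Rpl9 (-0.53 and -0.44) lower in both genotypes. On that scale 4 were higher and 3 lower in p53WT_G2, where 12.9% and 4.29% of all genes were, and 3 and 9 in p53KO_G2, where 11.6% and 6.21% were. Across the 70 high genes the G2 differences of the genotypes had a Pearson correlation of 0.815, as a description.

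Mitochondrial ribosomal protein genes rose in G2, 39 of 76 in p53WT and 48 of 76 in p53KO, with medians of 1.00 and 1.30. Other genes of up to 1000 bases had medians of 0.82 and 0.97. Of the 51 assembly genes 1 rose and 8 fell in p53WT_G2, Myc (-1.51), the box C/D protein Nop58 (-1.38) and the nucleolar helicase Ddx21 (-0.94) among the falls. In p53KO_G2 3 rose and 2 fell, against a p53KO baseline that holds replicate 3, the library low for this list. Markers of mature fibres also moved with G2: 4 of 7 tested rose in p53WT_G2 and 5 in p53KO_G2, their sum from 20.3 to 98.0 FPKM with no suffix to 412 to 1416, with Myh2 under 1 FPKM throughout. Schwann cell markers summed to 98.0 to 111 FPKM in G2 against 239.8 to 336 with no suffix, with 2 of 6 lower and Ngfr higher in each genotype. Endothelium markers, at 9.28 to 26.1 FPKM in G2, and fibro-adipogenic markers, at 4.64 to 11.6, were also lower in sum than with no suffix in most libraries. Tendon markers summed to 462 to 542 FPKM in p53WT_G2 against 219 to 438 in p53WT. In p53KO_G2 they summed to 230 to 234 against 226 to 386 in p53KO. Of 6 tendon markers Scx rose in each genotype, and 0 fell in p53WT_G2 and 3 in p53KO_G2. Pericyte and smooth muscle markers overlapped in sum (342 to 724 against 357 to 943 FPKM), and only Notch3, lower in p53KO_G2, was called. Of 8 proliferation markers 7 rose in each genotype, to sums of 463 to 714 FPKM, and the part of these cells in the values was not tested.

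The third comparison, G2 against 3dai, shares its libraries with the comparisons above. The ribosomal protein genes were lower in G2 than in 3dai in both genotypes: all 70 genes above 100 FPKM in every library had negative differences, from -0.84 to -0.19 in p53WT and from -0.81 to -0.11 in p53KO. The groups did not overlap, with G2 lower, for 73 of 80 genes in p53WT and 62 in p53KO, where 23.5% and 20.2% of all tested genes did so, and with G2 higher for 1 and 0, where 30.3% and 28.6% did. By limma's test 11 of 80 fell in p53WT_G2, where 6.7% of all genes fell and 13.9% rose, and 8 of 80 in p53KO_G2, where 7.1% fell and 16.1% rose. No gene of the set rose, 38 and 22 had an unadjusted p under 0.05, and the medians were -0.54 and -0.42 against 0.09 and 0.12 for all genes. Under quantile normalization the medians were only -0.19 and -0.11 against -0.10 and -0.07 for all genes.

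Rpl27, Rpl7a, Rplp0 and Rps2 fell in both genotypes, 36.4% of the 11 and 50% of the 8, and the overlap over all genes was not computed. Rpl27 had 315, 355 and 482 FPKM in the p53WT_3dai libraries and 183 and 241 in p53WT_G2, and it fell by 0.84 (SE 0.21, adjusted p = 0.00918). In p53KO_G2 it was at 263 and 224 against 385, 369 and 372 and fell by 0.63 (adjusted p = 0.0386). The other leading falls were Rpl36a (-0.80, adjusted p = 0.0205) and Rpl32 (-0.79, adjusted p = 0.0391) in p53WT, and Rps27l (-1.05, adjusted p = 0.0253), Rpl29 (-0.81, adjusted p = 0.0306) and Rps2 (-0.69, adjusted p = 0.0368) in p53KO. Rps27l at -0.66 in p53WT was not called (adjusted p = 0.156).

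These calls rest on few libraries. Leaving out p53WT_3dai replicate 1 or 3, or p53WT_G2 replicate 1 or 2, left 3, 1, 0 and 1 falls in p53WT, and leaving out p53KO_3dai replicate 1, 2 or 3, or p53KO_G2 replicate 1 or 2, left 5, 0, 0, 2 and 1 in p53KO. In these fits 2.24 to 4.67% of all genes fell in p53WT and 2.99 to 7.33% in p53KO. On the scale relative to the ribosomal protein genes 0 fell in either genotype, where 0.664% and 1.23% of all genes did. Rpl39l was called higher in p53KO_G2 on that scale, where 18.5% of all genes were. It was at 8.12 and 0 FPKM in p53KO_G2 and at 0 in every p53KO_3dai library, so this call rests on 1 library. Mitochondrial ribosomal proteins fell too, 19 of 76 in p53WT and 14 in p53KO (medians -0.79 and -0.66), as did 14 and 15 of 51 assembly genes, and the median of other genes of up to 1000 bases was -0.37 and -0.22. Proliferation markers fell in G2 against 3dai as well, 8 of 8 in p53WT and 7 of 8 in p53KO. Other marker lists rose there, in p53WT and p53KO: 6 and 5 of 6 pericyte and smooth muscle markers and 5 and 4 of 6 tendon markers. Of 7 tested mature fibre markers 5 and 7 rose, of 9 muscle stem cell markers 4 and 4, and of 6 Schwann cell markers 3 and 2. Of 5 tested endothelium markers 3 and 2 rose, and 0 markers fell in the lists that rose. The part of these cells in the values was not tested.

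The fourth comparison asked what p53KO changes. None of the 80 ribosomal protein genes was called between genotypes under any of the 3 suffix states, where 0 to 0.0309% of all tested genes rose and 0.00772 to 0.0772% fell. At an unadjusted p under 0.05 the numbers were 1, 0 and 1 of 80. The median difference, p53KO minus p53WT, was 0.11 without a suffix, -0.01 for 3dai and 0.12 for G2, next to 0.01, -0.02 and -0.01 over all genes. Over the 70 high genes the differences stayed within -0.10 to 0.31 with no suffix, -0.17 to 0.17 in 3dai and -0.27 to 0.49 in G2, with standard errors of 0.16 to 0.30, 0.16 to 0.30 and 0.20 to 0.37. With no suffix 68 of these 70 were higher in p53KO, in G2 58 of 70, and in 3dai 30 of 70.

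The low p53WT replicate 3 enters the comparison with no suffix, and without it the median turned to -0.11, with 7 of 80 genes higher in p53KO in place of 73. In 3dai, leaving out the high p53WT_3dai replicate 3 moved the median to 0.14, with 74 of 80 genes higher in place of 34, and no gene was called in either case. In G2 the libraries did not overlap for 29 of 80 genes with p53KO_G2 higher and 2 lower, where 15.0% and 16.1% of all genes did so, and p53KO_G2 replicate 1 was the high library. With no suffix 0 genes lay wholly higher and 1 wholly lower in p53KO, where 3.99% and 2.74% of all genes did. That gene was Rpl3l, at 1.23, 1.10 and 1.16 FPKM in p53WT and at 0 in the 3 p53KO libraries (log2 difference -1.11, adjusted p = 1). In 3dai none of the 80 separated the genotypes, where 5.07% and 6.91% of all genes did.

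A list of 5 genes served as a readout of p53: Trp53 itself, Cdkn1a, Mdm2, Ccng1 and Phlda3. Among the 3dai cells 4 of them were called lower in p53KO (limma). The G2 cells had 2 such genes and the cells without a suffix 1, and 0 were higher in any state. The 1 gene without a suffix was Trp53, so no other gene of the list was called there. Trp53 is the gene named by the knockout, so its fall goes with the genotype itself and is no readout of p53 activity. Ccng1 stood at 57.2 to 59.4 FPKM in p53WT_3dai and 14.3 to 19.9 in p53KO_3dai. Its libraries overlapped without a suffix, at 5.43 to 10.2 FPKM in p53WT and 4.93 to 9.21 in p53KO. Rps27l, as a known p53 target, was not called between genotypes. With no suffix its difference was -0.18 (SE 0.28), in 3dai it was 0.00 (SE 0.28) and in G2 -0.40 (SE 0.34), each with adjusted p = 1. In G2 both p53KO libraries (350 and 334 FPKM) lay below both p53WT libraries (481 and 423). The largest uncalled differences belonged to genes of uncertain level, Rpl34 at 1.48, 1.70 and 2.24 and Rps27 at 0.56 and -2.0 with no suffix and in G2, and to Rpl30 (-0.42 with no suffix and 0.74 in 3dai), Rpl39l (-0.44 in 3dai and 1.59 in G2) and Rps4l (-0.43 in 3dai).

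Whether the 3dai or G2 difference depends on genotype was tested as an interaction, the genotype difference with the suffix minus that without. None of the 80 genes was called, and 0 had an unadjusted p under 0.05. Over all genes 0 were called for 3dai, and 0% rose and 0.0232% fell for G2. Rps27l had an interaction of 0.17 (SE 0.40, adjusted p = 0.967) in 3dai and -0.22 (SE 0.44, adjusted p = 1) in G2. Over the 70 high genes the interactions ran from -0.38 to 0.19 in 3dai and from -0.52 to 0.44 in G2. Their standard errors were 0.23 to 0.43 and 0.26 to 0.48. No interaction of this size was called with these libraries. The power to detect one was not computed, so a difference between genotypes may have been missed.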

How the data were processed

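Sorted mouse muscle cells of 6 groups (16 libraries) were measured by RNA-seq. The authors deposited FPKM values per gene, normalized for library size and transcript length, and the submitters' processing notes list STAR, Cufflinks, Cuffdiff and mm10, with versions not given in the sources used here. The files give no counts, so depth is unknown and no counting interval was computed. FPKM were taken as log2(FPKM + 1), which understates changes of low genes, and genes at 1 FPKM or more in at least 2 libraries (12954) were kept. All groups entered 1 fit with limma 3.58.1 (R 4.3.3, trend in the prior variance), two-sided, with Benjamini-Hochberg adjustment over all kept genes and calls at adjusted p under 0.05. The script was tested on simulated data. Named genes are the 3 largest called rises and falls of each comparison (the 2 largest differences each way where none was called), those farthest from the set's median in 3dai, the highest and lowest levels, and preset genes by role and paralog pair. Others are named only as examples from counts and lists. Alternatives covered the pseudocount, filters, scaling, array weights, a replicate block, the groups fitted and each library left out. Replicates are numbered samples, and nothing in the labels used here says that they came from separate animals, so p-values measure the spread between these samples, which may be technical. Some items are not reported here. Members and gene lists were chosen with earlier results of these data known.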

Additional observations from a re-analysis of the deposited data

How the results depend on the processing

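Rises in 3dai were found for 12 genes in p53WT and 10 in p53KO under median-of-ratios scaling, against 38 and 29, and its G2 counts were 1 higher and 8 lower in p53WT (median -0.40) and 0 higher and 8 lower in p53KO (median -0.38). With libraries centred on the ribosomal protein genes, 7 were higher and 17 lower in p53WT_3dai, 9 and 14 in p53KO_3dai, 3 lower in p53WT_G2 and 9 in p53KO_G2, and against 3dai 0 and 0 were lower in G2 and 1 higher in p53KO_G2. By that construction a rise smaller than the set's median turns negative, as for Rplp0 (-0.054), Rplp2 (-0.052), Rps19 (-0.14) and Rps27a (-0.086) in p53WT_3dai. Quantile normalization gave 13 and 12 higher in G2, 1 lower in p53KO_3dai, and 1 and 2 lower in G2 against 3dai (medians -0.19 and -0.11). Rescaling to the other genes' sum gave 1 lower in p53WT_G2. Fitting only the compared groups gave 18 higher in p53WT_3dai but 40 in p53KO_3dai, 1 higher and 1 lower in p53WT_G2, 1 higher in p53KO_G2, and 5 and 3 lower in G2 against 3dai. Array weights gave 46 higher in p53KO_3dai, 5 higher in p53WT_G2 and 28 lower in p53WT_G2 against 3dai. No filter gave 5 and 4 lower in G2 against 3dai, where 767 and 804 of 16422 genes fell. A filter at a mean of 5 FPKM gave 17 lower in p53WT, where 852 of 8470 genes fell. Without the third libraries of p53WT and p53WT_3dai, chosen after seeing the data, 17 rose in p53WT_3dai and 13 were lower in p53WT_G2 (median -0.21). The share of all genes called also moved between settings. Counts in this section with no value for all genes beside them are therefore no result about the ribosomal protein genes. The cause of the other changes was not tested.

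Leaving out 1 library at a time gave 23 to 47 higher and 0 to 1 lower in p53WT_3dai, 19 to 28 higher in p53KO_3dai, 0 to 4 higher and 0 to 6 lower in p53WT_G2 (median -0.21 to 0.14), and 0 to 4 higher and 0 to 1 lower in p53KO_G2 (median -0.051 to 0.18). Against 3dai, 0 to 10 were lower in p53WT_G2, and 0 to 5 lower and 0 to 1 higher in p53KO_G2. None of the ribosomal protein genes was called between genotypes or in the interactions under any alternative run. The G2 rises were lost without single libraries: Rps27l without p53WT_G2 replicate 1 or either p53KO_G2 library, Rpl41 without either p53WT_G2 library or p53KO_G2 replicate 1, and Rps2 without p53WT replicate 3, either p53WT_G2 library, p53KO replicate 2 or p53KO_G2 replicate 1.

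Replicate numbers are shared between groups, and deviations of same-numbered libraries from their group means correlated at -0.16 to 0.13. Deviations from means of 2 or 3 libraries depend on each other. These values therefore cannot tell whether same-numbered libraries share a batch, a day or an animal. With the replicate number as a block, 36 and 25 genes rose in 3dai, 2 in p53KO_G2, and 3 and 2 were lower in G2 against 3dai. Depth is unknown, so no limit from depth can be given.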
